A study of Homo sapiens with 12 samples.

Results

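IGFL2 and FGF20 encode secreted proteins, a member of the IGF-like family and a fibroblast growth factor. They were paired because both were measured higher in the SW1990 arrays labelled GLI1. They are 2 of the 22411 genes that a single-symbol probe set represented on the array, and each was read from 1 probe set. The members were chosen by their SW1990 difference, so their SW1990 values are given as a description with no test. The PANC-1 arrays took no part in the choice, and there the difference was tested.

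IGFL2 belongs to the IGF-like family, small cysteine-rich secreted proteins whose genes lie close together on chromosome 19. Its relative IGFL1 binds IGFLR1, a cell surface receptor of the TNF receptor type, and the function of IGFL2 itself is little known. FGF20, on chromosome 8, is a fibroblast growth factor of the same subfamily as FGF9 and FGF16. It is secreted without a classical signal peptide, binds FGF receptors together with heparan sulfate, and activates the RAS and ERK cascade. In the mouse it is needed for the formation of outer hair cells in the inner ear, and it has been described as a target gene of beta-catenin in some tumour cells.

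The study transfected SW1990 and PANC-1, established human cell lines of pancreatic ductal adenocarcinoma, with a GLI1 expression plasmid by a lipid reagent and used empty plasmid vector as the control. GLI1 is the transcription factor that carries Hedgehog signals to the genome. The 12 arrays form 4 groups of 3. These are SW1990 labelled GLI1 (LIP, LIP-1, LIP-2), SW1990 labelled control (a, b, c), PANC-1 labelled GLI1 (LIP, LIP-1, LIP-2) and PANC-1 labelled control (S10, S11, S8). Whether these were separate cultures is not given, so p-values measure the spread between these arrays, which may be technical. The limma fit shares 1 spread per gene over all 4 groups. Its SW1990 standard errors and p-values thus also hold the spread of the PANC-1 arrays. Values are log2 signals after quantile normalization, and a difference of 1 is a doubling. All differences are arrays labelled GLI1 minus arrays labelled control.

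The GLI1 signal went against the labels in both lines. In SW1990, GLI1 was at 7.0, 6.90 and 6.77 in the arrays labelled GLI1, against 11.82, 11.84 and 11.76 in the arrays labelled control. In PANC-1 it was at 7.76, 8.0 and 8.04 in the arrays labelled GLI1, against 11.50, 11.54 and 11.46 in the arrays labelled control. The differences were −4.92 in SW1990 and −3.57 in PANC-1, which is 30.2-fold and 11.9-fold lower under the GLI1 label. Every direction below therefore follows the label of the arrays and not a known level of GLI1.

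Other facts of the arrays bear on what follows. The median level of 17 measured interferon-stimulated genes was 6.04 to 6.22 in the SW1990 arrays labelled GLI1, against 10.66 to 10.74 in those labelled control. In PANC-1 it was 6.01 to 6.44 in the arrays labelled GLI1, against 6.75 in S10, 6.34 in S11 and 9.30 in S8. Array S8 thus stood apart from the other PANC-1 controls, and calls of named related genes that change without it are given in their paragraphs. The part of the interferon-stimulated genes in the results on IGFL2 and FGF20 was not tested. The epithelial keratins KRT8 and KRT18 were at 10.95 to 12.48 as group means in both lines, whereas EPCAM was at 10.80 (labelled GLI1) and 10.85 (labelled control) in SW1990 and at 6.99 (labelled GLI1) and 6.89 (labelled control) in PANC-1. Of the 4 leukocyte markers, PTPRC was at 3.42 to 3.46 and CD68, which other cells also carry, at 8.59 to 11.04 as group means. Of the 5 fibroblast markers, LUM and DCN were at 3.19 to 4.18 and COL1A1 at 7.67 to 9.49. No marker passed the test in SW1990. In PANC-1, KRT19 (8.82 under the GLI1 label, 8.22 under the control label), COL1A1 (9.49 and 8.52 under the same labels) and CD14 (6.64 and 6.17) passed, each higher under the GLI1 label. Their part in the PANC-1 results was not tested.

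The promoter windows of IGFL2 and IGFL4 are shown because these family members had the largest SW1990 differences of the family, and because 1 of the IGFL4 windows resembles that of IGFL2. The sequences are from RefSeq on GRCh38.p14, run from 250 bases before to 50 bases after the start site, and are written 5′ to 3′ on the strand of the gene. Capitals mark matches to the letters CTTTGAA or CTTTGAT, which TCF and LEF factors bind, and to the TATA box letters TATAAA, on either strand. The windows are IGFL2 chr19:46147988-46148287 (plus strand), IGFL4 first window chr19:46077580-46077879 (minus strand) and IGFL4 second window chr19:46040953-46041252 (minus strand).
IGFL2: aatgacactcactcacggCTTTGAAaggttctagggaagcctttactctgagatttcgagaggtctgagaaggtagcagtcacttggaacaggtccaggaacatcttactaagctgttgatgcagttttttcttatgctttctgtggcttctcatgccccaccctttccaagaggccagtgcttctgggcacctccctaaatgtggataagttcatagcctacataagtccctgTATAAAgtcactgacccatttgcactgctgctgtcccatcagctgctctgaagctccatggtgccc
IGFL4 first window: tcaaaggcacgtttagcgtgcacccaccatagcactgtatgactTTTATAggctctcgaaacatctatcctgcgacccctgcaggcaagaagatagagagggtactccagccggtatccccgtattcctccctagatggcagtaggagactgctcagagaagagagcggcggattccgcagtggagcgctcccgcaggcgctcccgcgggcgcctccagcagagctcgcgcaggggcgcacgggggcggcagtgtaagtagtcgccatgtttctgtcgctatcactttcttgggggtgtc
IGFL4 second window: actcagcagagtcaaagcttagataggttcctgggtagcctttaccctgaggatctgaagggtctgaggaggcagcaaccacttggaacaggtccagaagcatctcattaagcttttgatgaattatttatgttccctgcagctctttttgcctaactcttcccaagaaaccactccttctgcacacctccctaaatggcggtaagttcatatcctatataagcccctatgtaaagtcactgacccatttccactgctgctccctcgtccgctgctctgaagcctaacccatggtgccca

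The second IGFL4 window shared 233 of 306 aligned positions with the IGFL2 window, an identity of 76.1%. The first IGFL4 window reached 48.1%, the IGFL3 window 50.8%, the IGFL1 window 48.1% and the window of the receptor gene IGFLR1 47.8%. The IGFL2 window held 1 CTTTGAA that began 232 bases before the start site and 1 TATAAA that began 16 bases before it. The IGFL1 window also held a TCF and LEF word, a CTTTGAT on the opposite strand that began 153 bases before its start site. A match to the 2 TCF and LEF words occurred in 6.86% of all 35116 promoter windows of this length, and TATAAA in 11.5%. The GLI word GACCACCCA was in 0.236% of all windows and in none of the IGFL windows. Such matches describe letters in a window and are not measured binding sites. The IGFL genes are close relatives, and how far their array probes share sequence was not tested.

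In SW1990, IGFL2 was at 9.50, 9.27 and 9.27 in the arrays labelled GLI1 (LIP, LIP-1 and LIP-2), against 7.0, 6.96 and 7.30 in the control arrays a, b and c. The groups averaged 9.35 ± 0.13 and 7.08 ± 0.18 (SD, n = 3 each), and the lowest array labelled GLI1 was well above the highest control. The difference was 2.26 with a standard error of 0.10 and a 95% interval of 2.05 to 2.47, a 4.8-fold higher level. It was the largest positive difference among the 22411 genes in this line, with KIT, a receptor tyrosine kinase, at 1.84, TNC, an extracellular matrix glycoprotein, at 1.84 and the small nucleolar RNA SNORA13 at 1.77 next in order.

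FGF20 in SW1990 was at 9.08, 9.03 and 9.20 in the arrays labelled GLI1, against 7.32, 7.36 and 7.75 in controls a, b and c. The means were 9.10 ± 0.09 and 7.48 ± 0.24 (SD, n = 3 each), again without overlap. The choice of members partly fixes this separation for both genes, and the share of all genes whose groups separate was not counted. Control array c was the highest of the controls for both genes. The FGF20 difference was 1.62 with a standard error of 0.13 and a 95% interval of 1.33 to 1.91, a 3.08-fold higher level. FGF20 stood sixth in the order of SW1990 differences. PRF1, the pore-forming protein of cytotoxic lymphocytes, lay just above it at 1.74, and below it were HAS2, a hyaluronan synthase, at 1.55, the hair keratin-associated gene KRTAP3-1 at 1.46 and the small nucleolar RNA SNORD126 at 1.42. Across all genes, 18.9% passed an adjusted p of 0.05 in SW1990, 9.3% higher (2084 genes) and 9.62% lower (2157 genes) under the GLI1 label. Without the PANC-1 array S8 it was 2772 genes higher and 2829 lower in SW1990. That background is printed for scale only, since the members were selected on this contrast.

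In PANC-1 neither gene passed the test. IGFL2 was at 5.53, 5.41 and 5.53 in the arrays labelled GLI1, against 5.62, 5.63 and 5.50 in S10, S11 and S8, and the groups overlapped. The means were 5.49 ± 0.07 and 5.58 ± 0.07 (SD, n = 3 each). The difference was −0.10 with a 95% interval of −0.31 to 0.11 (limma, adjusted p over all genes = 0.6549; two-sided exact permutation p = 0.3, where 3 arrays against 3 cannot go below 0.1). The interval leaves out a rise of the size measured in SW1990, but IGFL2 was chosen for that size. In every PANC-1 array the deposited IGFL2 signal lay below the median deposited signal of that array. No detection call was used, so whether IGFL2 was detected in PANC-1 was not tested. The interval thus cannot tell an undetected gene from a detected gene without a label difference.

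FGF20 in PANC-1 was at 5.50, 5.91 and 5.82 in the arrays labelled GLI1, against 5.41, 5.54 and 5.68 in S10, S11 and S8. Arrays LIP-1 and LIP-2 were above all 3 controls and LIP was not. The deposited FGF20 signal also lay below the median deposited signal of its array throughout PANC-1. Whether FGF20 was detected there was not tested. The means were 5.74 ± 0.22 and 5.54 ± 0.14 (SD, n = 3 each), and the difference was 0.20 with a 95% interval of −0.09 to 0.49 (limma, adjusted p = 0.4269; two-sided exact permutation p = 0.3). In this line 9.64% of all genes passed, 4.39% higher (984 genes) and 5.25% lower (1176 genes). That background moved with single arrays. It was 2987 higher and 2456 lower without S8, 247 and 481 without S10, 357 and 575 without S11, 269 and 500 without LIP-1, and 307 and 477 without LIP-2. With array weights both genes passed in opposite directions, IGFL2 at −0.19 (adjusted p = 0.03358) and FGF20 at 0.35 (adjusted p = 0.005092). That setting gave weights of 4.152 to LIP-1 and 3.225 to S11. The other PANC-1 weights were 0.423 (LIP), 0.781 (LIP-2), 0.773 (S10) and 0.165 (S8). These calls thus rest mostly on LIP-1 against S11. With S8 left out, IGFL2 was at −0.14 (adjusted p = 0.4468) and FGF20 at 0.27 (adjusted p = 0.2264).

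**Figure D1:**
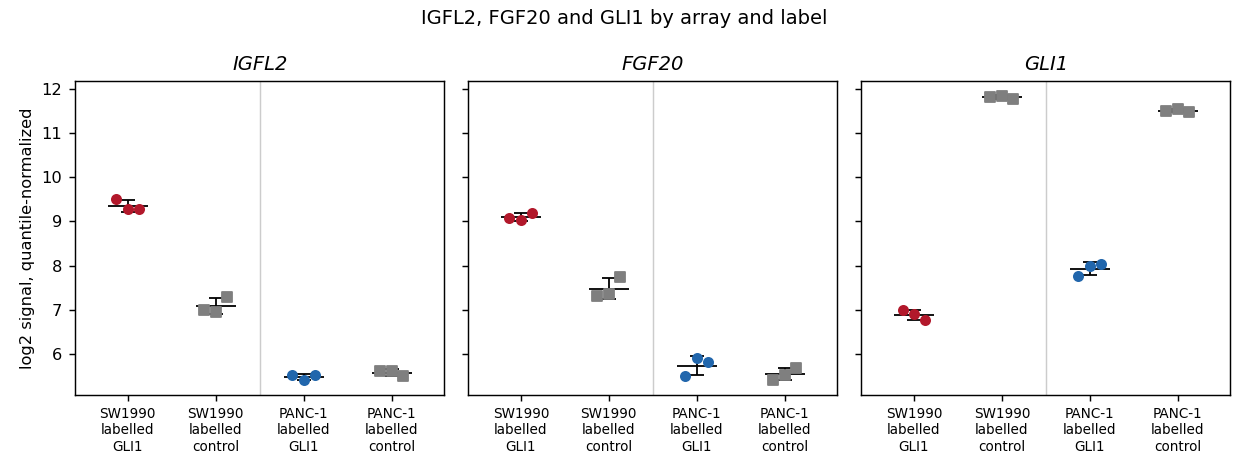
Log2 signal (vertical axis) of IGFL2, FGF20 and GLI1 in each of the 12 arrays, with circles for arrays labelled GLI1 and squares for arrays labelled control; horizontal ticks are group means and bars are SD (n = 3). IGFL2 and FGF20 separate by label only in SW1990, while GLI1 lies at 6.77 to 8.04 under the GLI1 label and at 11.46 to 11.84 under the control label.

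Both genes were also higher in SW1990 than in PANC-1 under either label. For IGFL2 the lines differed by 3.86 (14.5-fold) among arrays labelled GLI1 and by 1.5 (2.83-fold) among arrays labelled control. For FGF20 they differed by 3.36 (10.2-fold) among arrays labelled GLI1 and by 1.93 (3.82-fold) among controls. The order of the 4 group levels started with SW1990 labelled GLI1 and SW1990 labelled control for both genes. The PANC-1 groups came last and did not differ beyond their spread. The label difference in PANC-1 minus that in SW1990 was −2.36 (SE 0.14) for IGFL2 and −1.42 (SE 0.19) for FGF20, which the choice of members partly fixes and which was therefore not tested.

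Across the 12 arrays the 2 genes had a Pearson r of 0.984, which put FGF20 at rank 13 among all genes for IGFL2 and IGFL2 at rank 26 for FGF20. The 12 points share their 2 lines and labels, and both members were chosen for their rise in the same SW1990 arrays. The choice thus partly fixes a high r between them, and these coefficients are descriptions. The genes most like IGFL2 were ZBED2 (r = 0.995), SEMA5A (0.995), PCOTH (0.993), TNFRSF19 (0.993) and CHI3L1 (0.992). Of these, SEMA5A is a semaphorin guidance protein, TNFRSF19 a TNF receptor family member and CHI3L1 a secreted chitinase-like glycoprotein. SEMA5A averaged 8.34 in the SW1990 arrays labelled GLI1 and 7.21 in their controls, against 6.43 and 6.44 for the same labels in PANC-1. The genes most like FGF20 were KSR2 (0.993), a scaffold of the RAF and MEK kinases, KHK (0.992), the fructose kinase ketohexokinase, the transcription factor MYB (0.991), HS6ST1 (0.990), which adds sulfate to heparan sulfate, and the peptide neuromedin U, NMU (0.990). NMU averaged 7.54 in the SW1990 arrays labelled GLI1 and 6.23 in their controls, with 4.65 in the PANC-1 arrays labelled GLI1 and 4.62 in the PANC-1 controls. SPATS2L had the lowest r with both, at −0.988 for IGFL2 and −0.992 for FGF20. IGF2BP3 (−0.985) and ZHX1 (−0.980) followed for IGFL2, and RASGRP3 (−0.985) and KDM5B (−0.985) for FGF20.

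Genes that lie next to the members were tested in the same fit. On chromosome 19, IGFL3 and the long noncoding gene LOC93429 overlap the span that RefSeq gives IGFL2, with IGFL4 and PGLYRP1 beyond on the one side and IGFL1 and HIF3A on the other. Of these 6, only IGFL4 passed in SW1990, and LOC93429 (0.13), PGLYRP1 (0.15) and HIF3A (0.07) did not. Over all genes 18.9% passed in SW1990. The neighbours of either member are too few to be set against that share. On chromosome 8, ZDHHC2, the nearest measured gene on one side of FGF20 and a palmitoyltransferase, was higher in SW1990 by 0.46 (limma, adjusted p = 0.001259) and stood at −0.09 in PANC-1 (adjusted p = 0.567). TUSC3, a subunit of the N-glycosylation machinery, was lower in SW1990 by −0.19 (adjusted p = 0.01061). VPS37A, of the ESCRT sorting machinery, was at −0.32 (adjusted p = 0.04153), a call lost without any one of the 6 SW1990 arrays (adjusted p of 0.0904 to 0.123), PANC-1 LIP-1 (0.0555) or S11 (0.0532). MSR1 at −0.01, MIR383 at −0.24 and CNOT7 at 0.16 did not pass.

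The family of IGFL2 and its receptor had 4 measured genes besides the member, and 2 of them rose in SW1990. IGFL4 was at 11.08, 10.90 and 10.83 in the arrays labelled GLI1, against 9.68, 9.55 and 9.75 in controls, a difference of 1.28 (SE 0.22; limma, adjusted p = 0.002059; 2.43-fold higher). IGFLR1 was at 7.40, 7.31 and 7.23 in the arrays labelled GLI1, against 6.91, 6.93 and 7.06 in controls, a difference of 0.35 (SE 0.08; adjusted p = 0.01109) that was at an adjusted p of 0.0502 without control array a. In both genes the groups did not overlap, which was also so for IGFL1, a gene that did not pass. How many of all genes separate in this way was not counted. IGFL1 at 0.23 (adjusted p = 0.1164, or 0.0494 without PANC-1 LIP) and IGFL3 at 0.24 (adjusted p = 0.1891) did not pass.

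In PANC-1, 0 of the 4 passed with limma, beside 9.64% of all genes. There 1 had an unadjusted p under 0.05, and the methods' t-test gave 0 before adjustment. After adjustment the methods' t-test called 0 of all 22411 genes in PANC-1, so it could call none in any list there. IGFL4 in PANC-1 was at 5.67, 6.24 and 6.10 in the arrays labelled GLI1, against 5.50, 5.54 and 6.41 in S10, S11 and S8, so S8 was the highest of the 6 arrays. Its difference was 0.19 (adjusted p = 0.722), with an adjusted p of 0.0316 once S8 was left out. IGFLR1 stood at 0.22 (adjusted p = 0.1161) and at an adjusted p of 0.0153 without S8. The test of the difference between lines did not pass for IGFL4 (−1.09, adjusted p = 0.09691) or IGFLR1 (−0.13, adjusted p = 0.6554).

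**Figure D2:**
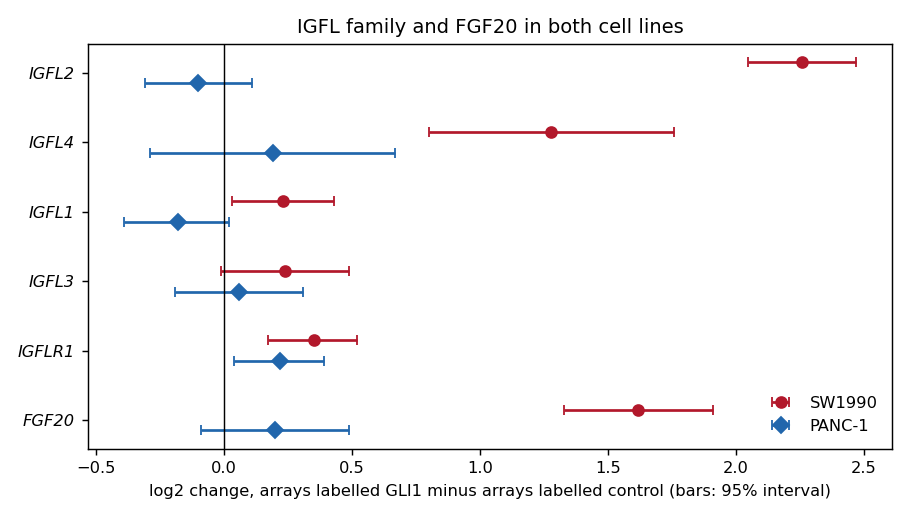
Log2 difference between arrays labelled GLI1 and arrays labelled control (horizontal axis) for the IGFL genes, IGFLR1 and FGF20, with circles for SW1990, diamonds for PANC-1 and bars for the 95% interval (n = 3 arrays per group). IGFL2, IGFL4 and FGF20 lie at 2.26, 1.28 and 1.62 in SW1990, and all 6 genes lie between −0.18 and 0.22 in PANC-1.

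Of 123 measured genes in 10 lists related to the members, 24 passed in SW1990, 11 higher and 13 lower, which is 19.5% beside 18.9% of all genes. The split of higher and lower depended on the scaling. With values as deposited it was 15 higher and 8 lower, and with each array centred on its median 11 and 9, and over all genes the share of called genes that were higher was 49.1%, 63.5% and 53.3% in the 3 scalings. In PANC-1, 14 related genes passed, 9 higher and 5 lower, or 11.4% beside 9.64% of all genes. As a whole, the related genes were called about as often as the background in both lines. Leaving out S8 gave 31 calls in PANC-1, leaving out S10 gave 1, LIP-1 or LIP-2 gave 2, S11 3, SW1990 control b 8 and SW1990 LIP-1 or control a 9, so the PANC-1 count rests on single arrays, as does the count over all genes. In SW1990, leaving out control a or b gave 15.

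**Figure D3:**
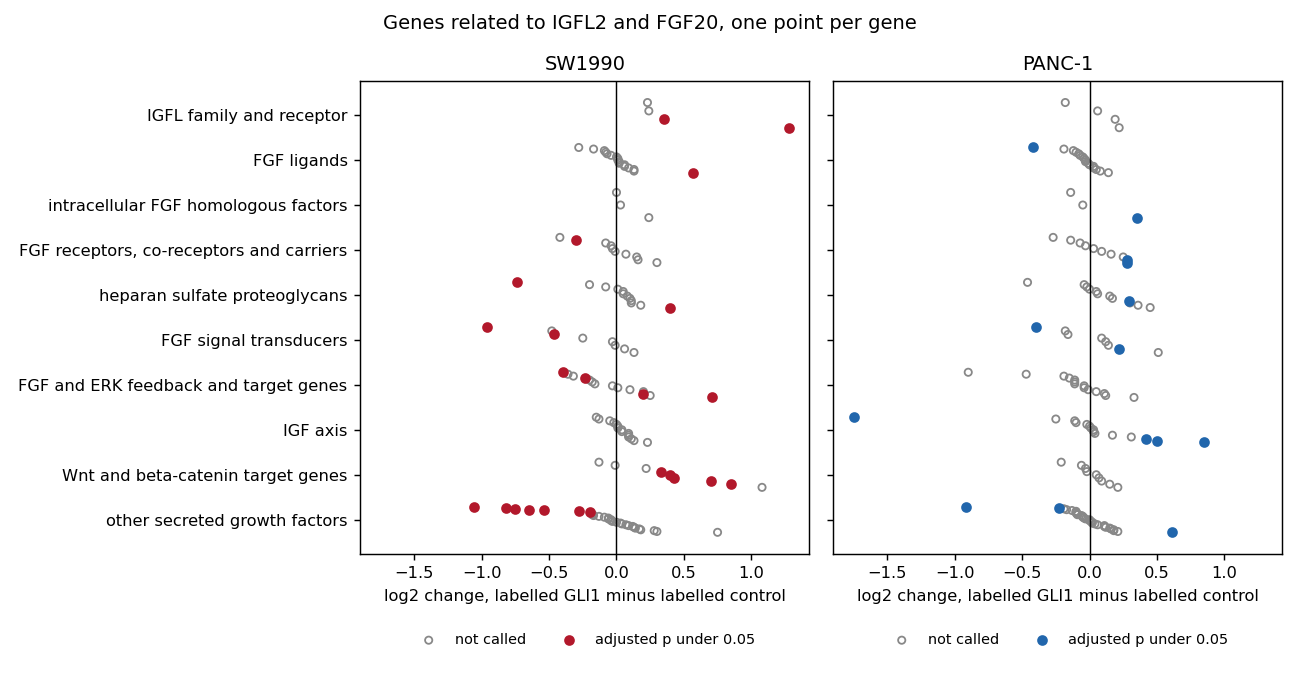
Log2 difference between arrays labelled GLI1 and arrays labelled control (horizontal axis) for each of the 123 related genes, by list, in SW1990 and PANC-1; filled points have a limma adjusted p under 0.05. In SW1990 the 5 called Wnt and beta-catenin target genes lie above 0 and the 7 called growth factors below 0. The lists were chosen with earlier results of these data known.

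Among the 17 other FGF ligands measured, 1 passed in each line. That is 5.88%, beside 18.9% of all genes in SW1990 and 9.64% in PANC-1. FGF9, of the FGF20 subfamily, rose in SW1990. It was at 6.83, 7.19 and 7.01 in the arrays labelled GLI1, against 6.37, 6.48 and 6.49 in controls, a difference of 0.57 (SE 0.08; adjusted p = 0.0006561; 1.48-fold). In PANC-1 it was at 5.17, 5.24 and 5.16 in the arrays labelled GLI1, against 5.28, 5.27 and 5.28 in controls (−0.08, adjusted p = 0.6239), and the difference between lines passed (−0.65, adjusted p = 0.01453). The deposited FGF9 signal lay below the median deposited signal of every PANC-1 array. Whether FGF9 was detected there was not tested. FGF2, the basic fibroblast growth factor, fell in PANC-1. It was at 9.75, 9.71 and 9.66 in the arrays labelled GLI1, against 9.97, 10.06 and 10.34 in controls (−0.42, adjusted p = 0.01708, or 0.0623 without LIP-1 and 0.0689 without LIP-2). In SW1990 FGF2 stood at 0.02 (adjusted p = 0.9214). FGF21 (−0.28) and FGF7 (−0.17) did not pass in SW1990 with all arrays, but FGF21 did without c (adjusted p = 0.00778) or PANC-1 S8 (0.0465) and FGF7 without LIP-2 (0.0277). The median difference over the ligands was 0.01 in SW1990 and −0.03 in PANC-1. Of the 3 measured FGF homologous factors, which stay inside the cell, 1 passed in PANC-1 (33.3% beside 9.64% of all genes). FGF11 was higher there by 0.35 (adjusted p = 0.04094). That call was lost without any of 9 single arrays, namely SW1990 LIP-1, a, b or c and every PANC-1 array but S8 (adjusted p of 0.0549 to 0.138). FGF11 was at 0.24 in SW1990 and passed there only without LIP (0.00999), and FGF12 was at −0.14 in PANC-1 and passed there only without S8 (0.0437).

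Of the 10 FGF receptors, co-receptors and carriers, only FGFR3 passed in SW1990, or 10.0% beside 18.9% of all genes. It was at 8.08, 8.19 and 8.13 in the arrays labelled GLI1, against 8.43, 8.47 and 8.40 in controls (−0.30, adjusted p = 0.02112). That call was lost without LIP, LIP-2, a or b (adjusted p of 0.0717, 0.0563, 0.0632 and 0.0776), and 0 receptor genes fell with values as deposited, where 1 rose, or centred on the median. In PANC-1, FGFR3 was at 8.19, 8.34 and 8.52 in the arrays labelled GLI1, against 7.99, 8.08 and 8.13 in controls (0.28, adjusted p = 0.04663), a call lost without any single array other than PANC-1 LIP or S8 (adjusted p of 0.0583 to 0.184). The difference between lines was 0.58 (adjusted p = 0.02386). FGFRL1, a receptor that lacks the kinase domain, was higher in PANC-1 by 0.28 (adjusted p = 0.01906, or 0.0575 without LIP-2 and 0.0817 without S10) and stood at 0.15 in SW1990 (adjusted p = 0.1223).

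Heparan sulfate proteoglycans hold FGF ligands at the cell surface, and 2 of 12 passed in SW1990, or 16.7% beside 18.9% of all genes. SDC1, syndecan-1, was at 9.44, 9.38 and 9.37 in the arrays labelled GLI1, against 9.03, 8.98 and 8.99 in controls (0.40, adjusted p = 0.00286). SDC4, syndecan-4, averaged 10.29 ± 0.14 in the arrays labelled GLI1 and 11.03 ± 0.03 in controls (−0.74, adjusted p = 0.01707), with an adjusted p of 0.0636 without LIP, 0.0535 without a and 0.0585 without b. Their differences thus ran in opposite directions. In PANC-1, SDC1 was higher by 0.29 (adjusted p = 0.03007), a call lost without SW1990 b or any PANC-1 array but S8 (0.0505 to 0.128), and SDC4 stood at −0.46 (adjusted p = 0.1631, or 0.0496 without LIP). Without S8 the count of proteoglycan genes higher in PANC-1 was 6 instead of 1. Among them were the glypican GPC6, at 0.45 with all arrays (adjusted p = 0.09225, or 6.89e-05 without S8), and perlecan, HSPG2, at 0.30 (adjusted p = 0.192, or 0.00636 without S8).

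Among the 8 signal transducers below the receptor, 2 fell in SW1990 and none rose there, or 25.0% called beside 18.9% of all genes. SOS2, an exchange factor that activates RAS, was at 7.86, 7.94 and 7.85 in the arrays labelled GLI1, against 8.82, 8.81 and 8.90 in controls, a difference of −0.96 (SE 0.06; adjusted p = 4.008e-06; 1.95-fold lower). CBL, a ubiquitin ligase that removes activated receptors, was lower by −0.46 (adjusted p = 0.008765). In PANC-1, SOS2 was at 9.13, 8.96 and 9.0 in the arrays labelled GLI1, against 9.24, 9.17 and 9.20 in controls (−0.18, adjusted p = 0.08256, or 0.0367 without LIP), and the difference between lines was 0.79 (adjusted p = 0.000811). CBL was lower by −0.40 in PANC-1 (adjusted p = 0.03366), where its groups overlapped and the call was lost without SW1990 LIP-1, a, b or c or PANC-1 LIP-1, LIP-2, S10 or S11 (adjusted p of 0.0502 to 0.135). The adaptor GRB2 was higher there by 0.22 (adjusted p = 0.02871), which was lost without LIP-1, LIP-2, S10 or S11 (0.0945 to 0.125). Without S8 there were 3 higher and 2 lower transducer genes in PANC-1 instead of 1 and 1. The phospholipase PLCG1, at 0.51 with all arrays (adjusted p = 0.07056), had an adjusted p of 0.000115 without S8. The adaptor GAB1 was at 0.12 in PANC-1 (adjusted p = 0.7679, or 0.0013 without S8). In SW1990 GAB1 was at −0.48, and it passed there only without S8 (0.00013), S10 (0.0471) or S11 (0.0464).

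ERK signalling induces its own inhibitors, and 4 of the 14 feedback and target genes passed in SW1990, with 2 in each direction. The share called was 28.6%, beside 18.9% of all genes. DUSP6, the phosphatase that switches off ERK, was at 9.31, 9.47 and 9.48 in the arrays labelled GLI1, against 8.70, 8.65 and 8.77 in controls (0.71, SE 0.10, adjusted p = 0.0009094; 1.64-fold higher). PHLDA1 was higher by 0.20 (adjusted p = 0.0473), which did not hold without any one of the SW1990 arrays or PANC-1 LIP-2, S10 or S11 (adjusted p of 0.0605 to 0.139). The ETS factor ETV5 was lower by −0.40 (adjusted p = 0.008094) and the phosphatase DUSP4 by −0.23 (adjusted p = 0.03236), a DUSP4 call that was lost without LIP-1, LIP-2, a, b or c (0.0573 to 0.109). The list as a whole did not move one way, with a median of −0.10. In PANC-1, 0 of 14 passed with limma, beside 9.64% of all genes. There 2 had an unadjusted p under 0.05, and the methods' t-test gave 0 before adjustment. Without S8, 0 were higher and 2 lower. The phosphatase DUSP5, at −0.90 with all arrays (adjusted p = 0.07052), had an adjusted p of 8.72e-05 without S8, and the feedback inhibitor SPRY2, at −0.47 (adjusted p = 0.1196), had 0.0201 without S8 and 0.0194 without LIP. DUSP6 stood at 0.12 there (adjusted p = 0.5913), and the difference between lines did not pass (−0.59, adjusted p = 0.06785).

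The insulin-like growth factor axis, from which the IGFL genes take their name, gave 0 calls among 15 genes in SW1990 with limma. Of all genes 18.9% passed there. In this list 0 had an unadjusted p under 0.05, and the methods' t-test called 2 before adjustment. In PANC-1, 4 of the 15 passed, or 26.7% beside 9.64% of all genes. The binding proteins IGFBP3 (0.50, adjusted p = 0.01131, or 0.052 without S10) and IGFBP4 (0.85, adjusted p = 0.04427) and the adaptor IRS1 (0.42, adjusted p = 0.03062) were higher. The IRS1 call was lost without LIP-1, LIP-2, S10 or S11 (0.0799 to 0.127), and that of IGFBP4 without any single array but S8 (0.0606 to 0.119). The adaptor IRS2 was at 7.67, 7.36 and 7.14 in the arrays labelled GLI1, against 9.99, 9.46 and 7.98 in S10, S11 and S8 (−1.75, adjusted p = 0.01783), and the call was lost without LIP-1 (0.0652), LIP-2 (0.0743), S10 (0.0591) or S11 (0.0697). Its controls spread over more than 2 units, and array S8 was the control nearest to the arrays labelled GLI1.

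Of the 9 measured Wnt and beta-catenin target genes, 5 rose in SW1990 and 0 fell, with a median difference of 0.40. The share called was 55.6%, beside 18.9% of all genes. The list was put together with the SW1990 results known, so the choice may partly fix that share. AXIN2, a negative regulator that beta-catenin induces, was at 11.08, 11.14 and 11.21 in the arrays labelled GLI1, against 10.36, 10.43 and 10.56 in controls (0.70, SE 0.06, adjusted p = 6.332e-05; 1.62-fold). The transcription factor SP5 was higher by 0.43 (adjusted p = 0.002551), and the Wnt inhibitor NKD1 by 0.33 (adjusted p = 0.03154, with 0.113 without LIP-2, 0.0721 without b and 0.108 without c). LGR5, the R-spondin receptor, was at 7.27, 8.36 and 8.28 in the arrays labelled GLI1, against 6.97, 7.01 and 7.36 in controls (0.85, adjusted p = 0.02497). Its array LIP lay below control c, so the groups overlapped, and the call was lost without LIP-1, LIP-2, a or b (adjusted p of 0.0865 to 0.0971). ZNRF3, a ubiquitin ligase of Wnt receptors named here after its values were seen, was higher by 0.40 (adjusted p = 0.03572), a call lost without LIP-1, LIP-2, a, b or c (0.067 to 0.122).

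The count of Wnt targets called was 5 with arrays centred on their median and 6 with deposited values, and 2 to 6 with 1 array left out. DKK1, a secreted Wnt inhibitor, was at 1.08 (adjusted p = 0.2032), LEF1 at 0.22 (0.05413), NOTUM at −0.01 (0.9309) and RNF43 at −0.13 (0.1384), and these 4 did not pass. In PANC-1, 0 of the 9 passed with limma, beside 9.64% of all genes. There 2 had an unadjusted p under 0.05, and the methods' t-test called 2 before adjustment. Without S8, 1 passed, RNF43, a ubiquitin ligase of Wnt receptors (0.15, adjusted p = 0.1297 with all arrays and 0.0465 without S8). AXIN2 was at 7.04, 7.02 and 7.11 in the PANC-1 arrays labelled GLI1, against 7.05, 6.91 and 6.99 in controls (0.07, adjusted p = 0.6075). The difference between lines passed for AXIN2 (−0.63, adjusted p = 0.006995) and not for SP5 (−0.34, 0.132), LGR5 (−0.89, 0.201), NKD1 (−0.55, 0.06461) or ZNRF3 (−0.35, 0.3243). This list was put together with the SW1990 results known.

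**Figure D4:**
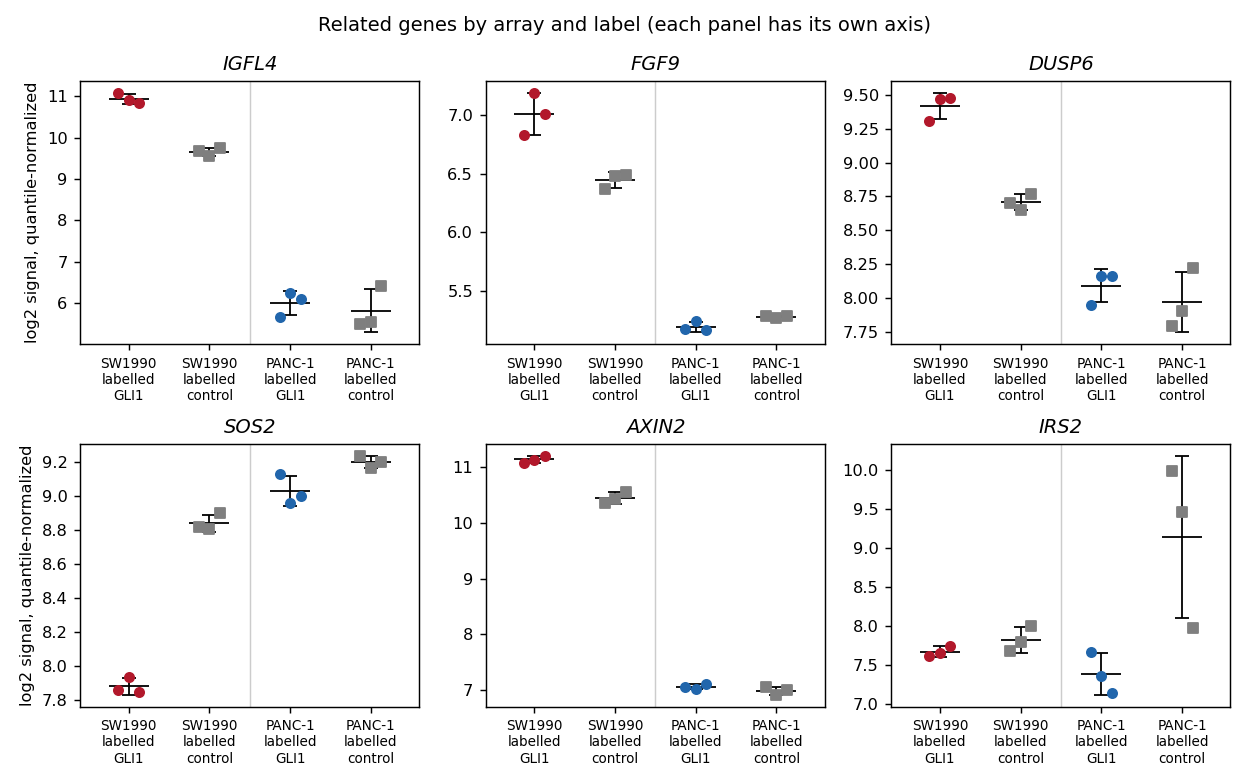
Log2 signal (vertical axis, own scale per panel) of IGFL4, FGF9, DUSP6, SOS2, AXIN2 and IRS2 in each array, with circles for arrays labelled GLI1, squares for arrays labelled control, ticks for means and bars for SD (n = 3). In SW1990 the first 5 genes separate by label, with SOS2 lower under the GLI1 label, and the PANC-1 control S8 lies near the arrays labelled GLI1 for IRS2.

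Of the 31 other secreted growth factors, 7 fell in SW1990 and none rose, with a median of −0.04. The share called was 22.6%, beside 18.9% of all genes. Without LIP-2, 1 was higher and 4 lower, and without PANC-1 LIP or S8, 2 were higher and 7 lower. With values as deposited, 1 was higher and 4 lower. EGF was at 4.96, 5.30 and 5.16 in the arrays labelled GLI1, against 6.09, 6.03 and 6.48 in controls (−1.06, SE 0.12, adjusted p = 0.0001712; 2.09-fold lower). CSF1, the macrophage colony-stimulating factor, was at 7.55, 7.55 and 7.40 in the arrays labelled GLI1, against 8.32, 8.32 and 8.30 in controls (−0.82, adjusted p = 0.00267). The EGF receptor ligand BTC (−0.65, adjusted p = 0.003925), the lymphatic growth factor VEGFD (−0.54, adjusted p = 0.0004747) and the EGF receptor ligand HBEGF (−0.75, adjusted p = 0.03953) were also lower. The HBEGF call was lost without SW1990 LIP, LIP-2, a, b or c or PANC-1 LIP-1 (0.0533 to 0.132).

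In PANC-1, 1 of the 31 rose and 2 fell, or 9.68% called beside 9.64% of all genes. Without S8, 3 rose and 2 fell. PDGFB was at 8.99, 8.85 and 9.0 in the arrays labelled GLI1, against 7.99, 8.23 and 8.78 in S10, S11 and S8 (0.61, adjusted p = 0.03261), a call lost without SW1990 LIP-1, a or b or any PANC-1 array but S8 (0.0506 to 0.117). In SW1990 PDGFB was at 0.30 and passed only without S8 (0.0159). HBEGF was at 8.22, 7.59 and 7.38 in the arrays labelled GLI1, against 8.80, 8.94 and 8.22 in controls (−0.92, adjusted p = 0.02756), so that the groups met at 8.22, and the call was lost without LIP-1, LIP-2, S10 or S11 (0.103 to 0.111). ANGPT2, an angiopoietin that acts on blood vessels, was lower by −0.23 (adjusted p = 0.0293), which was lost without LIP, LIP-1, S10 or S11 (0.0631 to 0.119). EGF stood at −0.05 in PANC-1 (adjusted p = 0.8745), and its difference between lines was 1.01 (adjusted p = 0.01288). Its PANC-1 signal was low, at means of 4.43 under the GLI1 label and 4.49 under the control label. Whether EGF was detected there was not tested.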

How the data were processed

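Log2 signals of 70523 probe sets on 12 arrays were taken as deposited. The authors' methods name background correction and normalization without tool versions, and describe an Agilent chip with Cy3 dye, whereas the labels give biotin and the deposited probe sets are those of an Affymetrix Human Transcriptome Array. The deposited log2 values were quantile-normalized again. Of the probe sets, 23781 had 1 gene symbol, 1543 several and 45199 none. The single-symbol probe set with the highest mean represented each of 22411 genes. No filter on low signal was set and no background or detection call was used. The number of arrays limits the precision.

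One limma model (version 3.58.1, R 4.3.3; lmFit and eBayes) with a mean per group and 8 residual degrees of freedom gave differences, standard errors and Benjamini-Hochberg adjusted p-values over all genes, called under 0.05. Single genes were also compared with a two-sided exact permutation test. The test was checked on simulated data. The members and gene lists were chosen with earlier results of these data known.

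Named genes were the members, GLI1, in each list the genes with the lowest adjusted p (at most 4 in a line), the IGFL family, the 5 genes with the highest and 3 with the lowest r to each member (leaving out clone, LOC and open reading frame symbols), the 3 nearest measured genes on each side, and the 3 genes above and below each member in the SW1990 order. ZNRF3 was added after its values were seen. Alternatives were deposited values, median centring, each line alone, array weights, a robust trend, a filter on the dimmest 30% of genes, probe set means, arrays a and b averaged, the methods' t-test, other thresholds and each array left out. No paired analysis was possible because arrays of the 2 labels share no replicate name. The listed genes FGF14, FRS2, IGF2, TCF7, AREG, NTF3 and GDNF were not analysed here.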

Additional observations from a re-analysis of the deposited data

Results flagged for a closer look

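The label difference of 6 of the 123 related genes differed between the cell lines by a test of the difference itself (limma, adjusted p over all genes), as did that of 536 of the 22411 genes. Values are the difference in PANC-1 minus that in SW1990. SOS2 had 0.79 (adjusted p = 0.000811), with −0.18 in PANC-1 and −0.96 in SW1990. AXIN2 had −0.63 (adjusted p = 0.006995), with 0.07 in PANC-1 and 0.70 in SW1990. EGF had 1.01 (adjusted p = 0.01288), with −0.05 in PANC-1 and −1.06 in SW1990. FGF9 had −0.65 (adjusted p = 0.01453), with −0.08 in PANC-1 and 0.57 in SW1990. FGFR3 had 0.58 (adjusted p = 0.02386) and was the only one of the 6 with calls of opposite direction, 0.28 in PANC-1 and −0.30 in SW1990. Both FGFR3 calls were lost without several single arrays. No receptor gene fell in SW1990 with values as deposited or centred on the median. VEGFD had 0.44 (adjusted p = 0.0498), with −0.10 in PANC-1 and −0.54 in SW1990. Its signal was low, with group means of 4.21 to 4.75 across both lines. In PANC-1, EGF (4.43 and 4.49) and FGF9 (5.19 and 5.27) were also low under the GLI1 and control labels. Whether these 2 genes were detected there was not tested. The members were not tested for a difference between lines because they were chosen for their SW1990 difference.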

How the results depend on the processing

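The SW1990 difference of IGFL2 stayed between 2.19 and 2.37 and that of FGF20 between 1.55 and 1.76 in all settings tried. In PANC-1, with 1 array left out, IGFL2 lay between −0.14 and −0.05 and FGF20 between 0.12 and 0.32, with no call. Array weights alone gave calls there, at −0.19 for IGFL2 and 0.35 for FGF20, with most of the weight on arrays LIP-1 and S11. The 24 related genes called in SW1990 became 39 with array weights, 13 at an adjusted p under 0.01 and 2 with at least a 2-fold difference, and 15 to 29 with 1 array left out. The 14 called in PANC-1 became 59 with array weights, 9 with median centring or with SW1990 controls a and b averaged, 0 with PANC-1 fitted alone, 0 with the methods' t-test, 0 at an adjusted p under 0.01, 1 with a 2-fold minimum, and 1 to 31 with 1 array left out. The cause was not tested. Of 63 calls on named genes, none reversed. All 63 were called again with array weights, a robust trend or probe set means, 56 with deposited values, 53 with median centring, 49 with a and b averaged, 48 with each line alone and 46 with the methods' t-test. The filter on dim genes kept 56 and lost 0, and 7 calls were on genes that it left out. With 1 array left out, 628 of 756 such results were called.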
